A study of Mus musculus with 6 samples.

Results

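Collagens are the main structural proteins of the extracellular matrix, and each is built from alpha chains encoded by separate genes. The genes described here are all the collagen alpha chains of the mouse, taken as every protein-coding row of the count table whose GENCODE symbol reads Col, a number, a and a number. The rule uses names only and found 44 chains among 55450 genes. They were assigned by textbook structure to the fibrillar collagens (11 chains), the type IV network of basement membranes (6), the FACIT collagens, fibril-associated collagens with interrupted triple helices (9), the beaded filaments of type VI (6), the transmembrane collagens (4), the multiplexins (2), the hexagonal networks of types VIII and X (3), the anchoring fibril chain Col7a1 (1) and Col26a1 and Col28a1, which were kept apart as other collagens (2).

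The study examined kidney disease with raised uric acid in male C57BL/6J wild type mice, bought at 7 weeks of age and kept for 1 week. Kidney mRNA was sequenced in 3 mice of the day-0 group and 3 mice of the day-21 group, out of 6 mice per group in the study. The day-21 mice had been gavaged once a day with adenine at 0.16 g/kg, a purine whose product crystallizes in tubules, together with the uricase inhibitor potassium oxonate at 2.4 g/kg. The day-0 mice carry the label control, with 20% PEG as their treatment, a vehicle that the study's methods do not state for day 0. By those methods each group was killed on its own day, which would make the day-21 mice 21 days older. Age and treatment then cannot be told apart in any comparison below. The sample was kidney tissue with all its cell types, so less RNA per cell and fewer cells of a type cannot be told apart in any value below. The 6 libraries held 10963849 to 14333311 counts. The labels number the samples of a group as replicates, and p-values measure the spread between these samples.

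In a collagen, chains wind around each other as trimers along stretches in which glycine returns at a fixed interval, so that the sequence repeats as Gly-X-Y. Fibrillar collagens have a long unbroken stretch, are trimmed at both ends by proteases outside the cell and pack into the banded fibrils of scar and interstitium. Type IV chains have many short stretches with interruptions and join end to end as the flexible sheet under epithelia and endothelia. In the kidney the chains Col4a1 and Col4a2 serve basement membranes throughout, while Col4a3, Col4a4 and Col4a5 make the network of the mature glomerular filter, the one lost in Alport syndrome. Fibroblasts and myofibroblasts are the usual source of fibrillar collagen in a scarred kidney, and podocytes the usual source of the glomerular type IV network.

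The coding sequences carried these differences. In the translated GENCODE coding transcripts, counting stretches of at least 5 Gly-X-Y triplets, the longest stretch of the 11 fibrillar chains spanned 216 to 344 triplets in proteins with 2 or 3 stretches. The shortest of them belonged to Col24a1 and Col27a1 (216 and 217 triplets). The 6 type IV chains had 22 to 27 stretches, and the longest in each chain held 39 to 66 triplets. Type VI chains reached 37 to 87 triplets, FACIT chains 32 to 113 and the short-chain collagens of the hexagonal networks 59 or 60, in genes of 3 or 4 exons.

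The type IV chains also share a gene layout. They lie as head-to-head pairs that are read in opposite directions from a common start region, with Col4a4 and Col4a3 on chromosome 1 (starts 71 bases apart), Col4a1 and Col4a2 on chromosome 8 (first exons overlapping by 22 bases) and Col4a6 and Col4a5 on chromosome X (starts 1308 bases apart). Below are the gap between the first pair, read in the direction of Col4a4 at chr1:82586850-82586920 on the minus strand, and the overlap of the second pair, read in the direction of Col4a2 at chr8:11312805-11312826 on the plus strand. They are shown because the chains of each pair moved in the same direction on day 21. Both are from the RefSeq promoter windows on GRCm38.p6, and capitals mark the whole gap and the whole overlap.
Col4a4 to Col4a3 gap: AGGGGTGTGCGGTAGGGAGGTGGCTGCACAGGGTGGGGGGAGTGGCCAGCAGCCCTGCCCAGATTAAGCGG
Col4a1 and Col4a2 overlap: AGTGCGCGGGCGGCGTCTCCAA

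For contrast, start-region stretches of 2 fibrillar genes that rose strongly, Col3a1 (chr1:45311288-45311537, plus strand) and Col1a2 (chr6:4505370-4505492, plus strand), are given next. The Col3a1 stretch lies before the annotated start of the gene. The Col1a2 stretch is the part of its window that lies in no GENCODE exon: it ends just before the first exon of the longest coding transcript, but lies inside the gene as annotated, since another transcript starts further upstream. Capitals mark matches on either strand to the 3 motifs searched. The motifs were the GC box, spelled GGGCGG, the TATA box, spelled TATAAA, and the CCAAT box, named by its letters, and no match overlapped another. The Col3a1 stretch held 1 TATA box in sequence of 35.2% G and C, and the Col1a2 stretch 2 GC boxes in sequence of 59.3% G and C. The full Col1a2 window also held 2 CCAAT boxes, both in the part not shown.
Col3a1: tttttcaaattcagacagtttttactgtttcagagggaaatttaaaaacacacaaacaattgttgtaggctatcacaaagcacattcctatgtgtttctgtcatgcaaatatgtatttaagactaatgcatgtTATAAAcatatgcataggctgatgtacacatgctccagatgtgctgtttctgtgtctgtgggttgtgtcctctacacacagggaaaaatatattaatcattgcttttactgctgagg
Col1a2: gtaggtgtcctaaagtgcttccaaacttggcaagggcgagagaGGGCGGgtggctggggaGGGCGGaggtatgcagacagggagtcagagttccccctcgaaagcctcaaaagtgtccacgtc

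RefSeq windows of 300 bases (250 before and 50 after a gene's start) were found for 35 of the 44 chains, 38 windows in all, and no window was used for Col1a1, Col2a1, Col4a3, Col5a2, Col9a3, Col12a1, Col14a1, Col22a1 and Col26a1. GGGCGG occurred in 60.5% of the collagen windows and in 35.7% of the 32851 windows of all genes. CCAAT occurred in 34.2% against 37.4%, and TATAAA in 13.2% against 13.6%. The collagen windows were richer in G and C, at a median of 59.9% against 52.7%. These are matches of letters and describe the windows only.

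Collagen mRNA rose in sum and changed in kind between day 0 and day 21. Of the 44 chains, 32 had enough counts to be tested, and 19 were called higher on day 21, 5 lower and 8 not called. A chain was called when its adjusted p in edgeR's quasi-likelihood test lay below 0.05 and it changed more than 1.5-fold, with Benjamini-Hochberg adjustment across the 16592 genes tested. The share of chains called was 75.0%, beside 35.1% of all genes tested, and 59.4% were called higher, beside 19.6% of all genes. The 5 called lower among the 32 are near the share over all genes, 15.5%. The median log2 fold change was 1.42 over the 32 chains and 0.03 over all genes tested. In 25 of the 32 chains the values of the 3 day-0 mice and the 3 day-21 mice did not overlap, as in 57.1% of all genes tested. With libraries scaled by size alone the median of all genes shifted by 0.39 and 81.7% of all calls were upward, in place of 55.8%, while 21 chains were called higher and 4 lower.

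**Figure D1:**
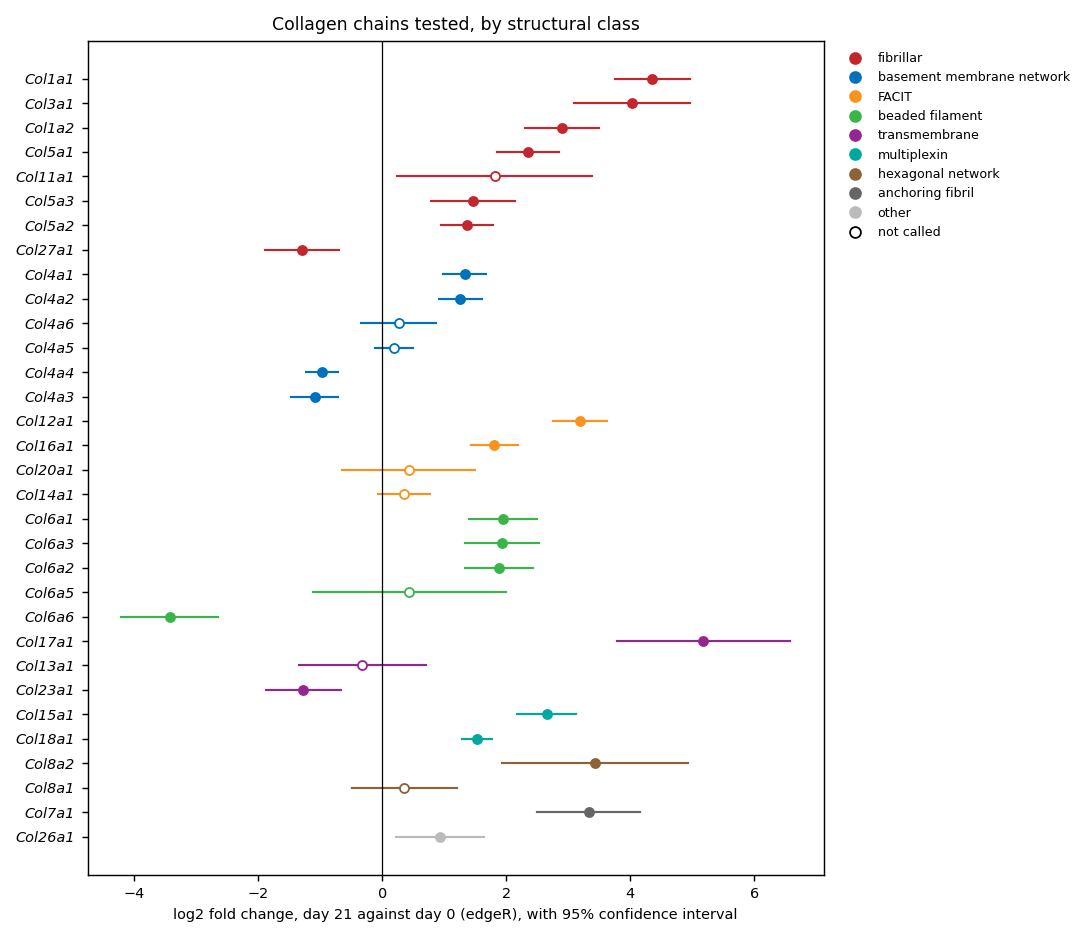
Log2 fold change of day 21 against day 0 (x axis) for the 32 chains tested, grouped by structural class (colour), with 95% confidence intervals from edgeR; open circles are chains not called. Points to the right of the line at 0 are higher on day 21, from 4.35 for Col1a1 to -3.43 for Col6a6; the point of Col17a1, at 5.18, rests on day-0 counts of 0 to 2 and is no bound on its rise.

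The fibrillar class, the largest of those tested, held the most chains called higher. They were 75.0% of its tested chains, beside 59.4% of all tested chains and 19.6% of all genes tested. Of its 8 tested chains, 6 were called higher (Col1a1, Col3a1, Col1a2, Col5a1, Col5a3 and Col5a2), Col27a1 was called lower and Col11a1 was not called, with a class median log2 fold change of 2.09. That median was 2.86 without day-0 replicate 3, the mouse in which several fibrillar chains had their highest day-0 level. The middle chains of the class, Col5a1 and Col11a1, then moved from 2.36 and 1.82 to 2.61 and 3.12. The value of Col11a1 rested on day-0 counts of 0 and 3. Levels below are CPM, counts scaled to a common library size after TMM normalization, unless given per kilobase of exon.

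Col1a1 (ENSMUSG00000001506.10, GRCm38 chromosome 11, 94936224 to 94953042, plus strand) encodes the major chain of type I collagen, the chief protein of scar. It stood at 11.5, 14.3 and 25.1 CPM in the day-0 mice and at 372, 279 and 385 CPM in the day-21 mice. All 3 day-21 mice were far above the highest day-0 mouse. The fold was 20.4, with a log2 fold change of 4.35 (SE 0.27, n = 3 against 3) and an adjusted p of 2.2e-06 by edgeR.

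Col3a1 (ENSMUSG00000026043.18, chromosome 1, 45311538 to 45349706) encodes the chain of type III collagen, which forms mixed fibrils with type I. Its level was 34.2, 23.2 and 64.8 CPM on day 0 and 781, 351 and 856 CPM on day 21. The spread was wide in both groups, and day-21 replicate 2 held less than the other two, yet the groups did not overlap. Its log2 fold change was 4.03 (SE 0.42, adjusted p 3.9e-05 by edgeR), a fold of 16.3. Per kilobase of exon Col3a1 and Col1a1 were the highest fibrillar chains by the mean over all 6 mice and on day 21 (67.5 and 52.7 CPM per kilobase). On day 0 Col1a2 (4.98) and Col5a2 (4.24) stood above Col3a1 (4.15) and Col1a1 (2.59). This order depends on the length used. Per kilobase of the longest transcript Col1a2 (86.6) stood above Col1a1 (58.3) on day 21, and Col3a1 (7.32) above Col5a2 (6.13) on day 0.

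Col1a2, the partner chain of type I collagen, rose from 47.5, 51.7 and 86.6 CPM to 516, 320 and 554 CPM (log2 fold change 2.90, SE 0.27), a fold of 7.49. The chains of type V collagen, which sit inside type I fibrils and set their width, rose less, with log2 fold changes of 2.36 for Col5a1, 1.47 for Col5a3 and 1.37 for Col5a2. About 2.5% of the exon bases of Col5a1 are shared with Gm13372 on the opposite strand, a gene of at most 121 counts in any mouse. Col11a1, the homologue of these chains known from cartilage, was seen 0, 3 and 8 times in the day-0 mice and 19, 18 and 22 times in those of day 21. Its groups did not overlap and its log2 fold change was 1.82, with an adjusted p of 0.0588 by edgeR. It was called without day-0 replicate 3, where the log2 fold change was 3.12.

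Col27a1 (ENSMUSG00000045672.15, chromosome 4, 63214004 to 63334991) went the other way. This fibrillar chain with the shortened triple helix, known from growing cartilage, stood at 41.6, 17.6 and 28.9 CPM on day 0 and 10.7, 13.8 and 11.3 CPM on day 21. Every day-21 mouse was below every day-0 mouse, with the day-0 mice far apart from one another. The log2 fold change was -1.30 (SE 0.27, adjusted p 0.00291 by edgeR), a level 2.45-fold lower. Of the 5 cartilage markers, Acan and Matn1 had at most 1 count in any mouse. Comp had counts of 6, 16 and 8 on day 0 and 3, 9 and 6 on day 21 (0.915 and 0.372 CPM by the means), Hapln1 had 3, 6 and 7 against 0, 4 and 0, and neither passed the filter. Sox9, which injured tubules also express, was called higher (log2 fold change 4.72). The part of cartilage-like cells in the fall of Col27a1 was not tested. The other fibrillar chains were too low to test, with counts of 3, 6 and 1 on day 0 and 3, 18 and 8 on day 21 for Col11a2, 11, 6 and 5 against 5, 6 and 6 for Col24a1, and 0, 2 and 0 against 0 in all 3 mice for Col2a1, the collagen of cartilage.

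The balance of the type I chains shifted as well. Within a mouse, the ratio of Col1a2 to Col1a1 in counts per kilobase was 2.18, 1.91 and 1.82 on day 0 and 0.732, 0.606 and 0.759 on day 21. The groups did not overlap, and the change of the log2 ratio was -1.50. With 3 mice against 3, the two-sided exact permutation test cannot go below 0.1, the p found here (0.157 after adjustment over the 11 ratios compared). Where the ratio stood relative to 1 depended on the length used, since the summed exons of Col1a2 are 12426 bases and its longest transcript 5348 bases. By the longest transcript the ratio fell from 4.12 to 1.46. The ratio of Col5a2 to Col5a1 fell from 3.63 to 1.78 with no overlap (exact p 0.1), while the groups overlapped for the ratio of Col1a1 to Col3a1 (0.646 and 0.830, exact p 0.4).

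**Figure D2:**
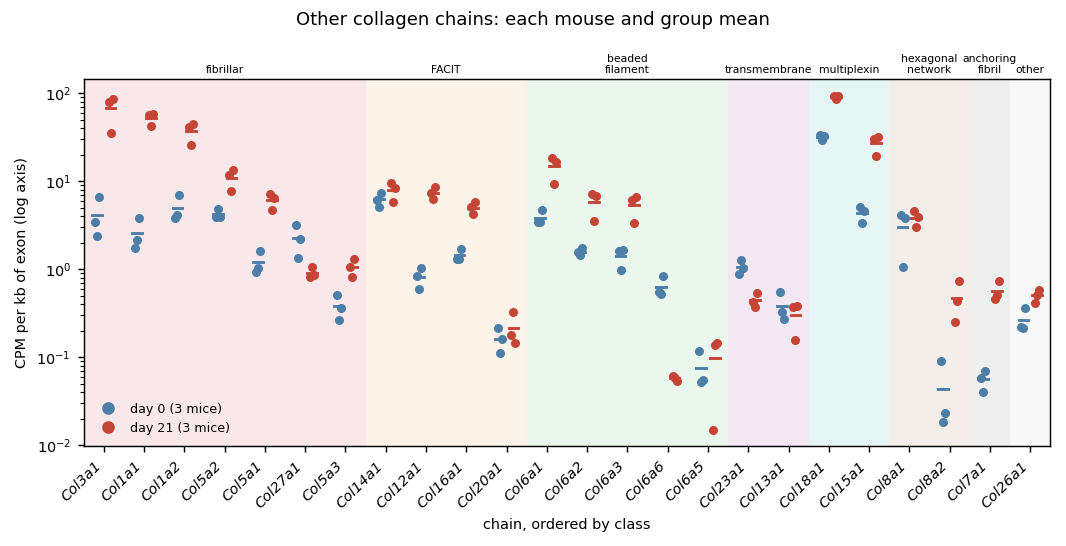
Level of 24 of the 26 tested chains outside type IV in each mouse, in CPM per kilobase of exon on a log axis, grouped by class (shading); dots are mice and short lines are group means. The fibrillar chains rise on day 21 except Col27a1, and Col6a6 has the lowest day-21 mean of the chains drawn; Col11a1 and Col17a1, each with 0 counts in a day-0 mouse, are left out.

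The type IV chains split by gene pair. Col4a1 and Col4a2 were called higher, Col4a3 and Col4a4 lower, and Col4a5 and Col4a6 were not called, so that the class median log2 fold change was 0.23.

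Col4a1 (ENSMUSG00000031502.11, chromosome 8, 11198423 to 11312826), the commonest basement membrane chain, had the highest level per kilobase of all collagens in both groups. It stood at 366, 292 and 374 CPM on day 0 and at 971, 701 and 919 CPM on day 21, a log2 fold change of 1.33 (SE 0.15, adjusted p 7.5e-05 by edgeR) and a fold of 2.51. Col4a2 (ENSMUSG00000031503.13), its partner in the trimer, went from 208, 170 and 222 CPM to 545, 391 and 504 CPM, a log2 fold change of 1.26 (SE 0.15, adjusted p 9.9e-05 by edgeR) and a fold of 2.40. In both genes the day-21 mice lay above all day-0 mice. Their ratio within a mouse was nearly constant, at 0.642, 0.656 and 0.668 on day 0 and 0.633, 0.628 and 0.619 on day 21. That is a change of -0.06 on the log2 scale (exact p 0.1).

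Col4a3 (ENSMUSG00000079465.8, chromosome 1, 82586921 to 82722059) fell from 262 ± 62.5 CPM on day 0 to 123 ± 16.8 CPM on day 21 (SD, n = 3), with counts of 2109, 2930 and 3218 before treatment and 2004, 1834 and 1921 after it, when every library was larger after TMM scaling. Its log2 fold change was -1.09 (SE 0.17, adjusted p 0.00056 by edgeR), a level 2.13-fold lower. Col4a4 (ENSMUSG00000067158.9, chromosome 1, 82448423 to 82586849), whose start lies beside that of Col4a3, fell from 245, 272 and 309 CPM to 145, 133 and 145 CPM. The log2 fold change was -0.97 (SE 0.12, adjusted p 9.9e-05 by edgeR), a level 1.96-fold lower. In neither gene did the groups overlap. Their ratio stayed near 1, with overlapping groups (1.09, 1.06 and 0.874 on day 0, 0.961, 1.14 and 1.15 on day 21, exact p 0.5). With libraries scaled by size alone, Col4a4 had a log2 fold change of -0.58 and was not called, as its fold was under 1.5.

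The third chain of the glomerular network did not fall with them. Col4a5 stood at 44.0, 41.5 and 57.5 CPM on day 0 and 52.0, 52.4 and 58.1 CPM on day 21, with overlapping groups and a log2 fold change of 0.19 (95% confidence interval -0.12 to 0.49, adjusted p 0.298 by edgeR). Col4a6, which pairs with Col4a5 in Bowman's capsule and other basement membranes, had a log2 fold change of 0.27 (interval -0.34 to 0.87) at levels of 4.81 to 9.28 CPM. The ratio of Col4a5 to Col4a3 went from 0.309, 0.255 and 0.257 to 0.545, 0.711 and 0.733, with no overlap. The ratio of Col4a3 to Col4a1 fell from 0.433, 0.620 and 0.664 to 0.109, 0.117 and 0.0959, a change of -2.39 on the log2 scale. Both had an exact p of 0.1, the smallest possible.

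Podocyte markers were read beside the glomerular chains. Of the 5 markers reported, Nphs1, which builds the slit diaphragm, and Podxl, of the podocyte surface, were called lower (log2 fold changes -0.97 and -0.71), and Synpo, Wt1 and Ptpro were not called (-0.30, -0.48 and -0.19), beside 15.5% of all genes called lower. Their summed level was 333 to 538 CPM on day 0 and 278 to 321 CPM on day 21, with none of them at 0. The orders differed within the day-0 group, where replicate 3 had the lowest podocyte sum (333 CPM) and the highest Col4a3. Without that mouse Col4a3 was at a log2 fold change of -0.90 and still called. Tubule markers fell as well, with 5 of 6 called lower and a median log2 fold change of -1.41, beside -0.48 for the podocyte markers. The part of podocyte or tubule RNA in the fall of Col4a3 and Col4a4 was not tested. Col4a3 also shares 5.65% of its exon bases with C430014B12Rik on the opposite strand (444, 523 and 579 counts on day 0, 437, 573 and 551 on day 21), and no strand setting of the counting was stated, so reads from the shared bases cannot be told apart.

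**Figure D3:**
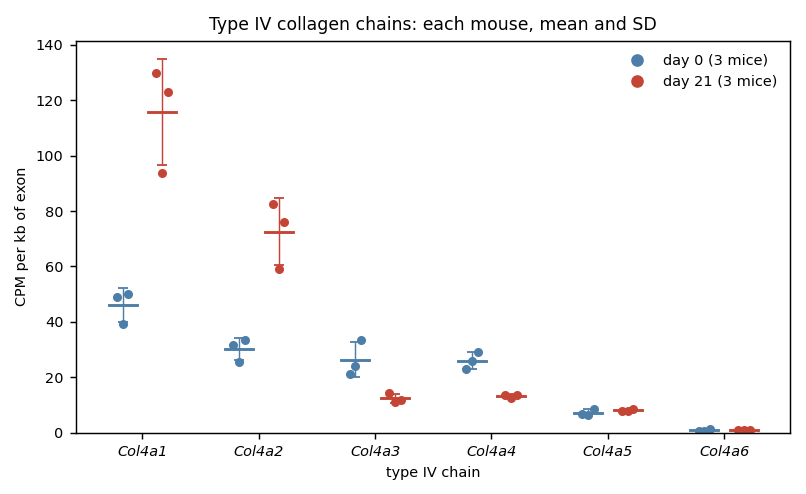
Level of the 6 type IV chains in each mouse, in CPM per kilobase of exon; dots are mice, bars the group mean and whiskers the SD (n = 3). Col4a1 and Col4a2 rise between day 0 and day 21, Col4a3 and Col4a4 fall from 26.2 and 25.9 to 12.3 and 13.3, and Col4a5 and Col4a6 overlap between groups.

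Among the FACIT collagens, which link fibrils to each other and to cells, 4 of 9 chains could be tested, 2 were called higher and none lower, with a median log2 fold change of 1.12. The median was 0.53 without day-21 replicate 2. That fit filtered the counts anew and tested 33 chains in place of 32, so its FACIT median is over another set of chains. Col12a1 and Col16a1 stayed called higher in it, at 3.29 and 1.92. Col12a1 (ENSMUSG00000032332.17, chromosome 9, 79598991 to 79718831), found along type I fibrils under load, rose from 12.7, 9.15 and 15.6 CPM to 112, 96.4 and 131 CPM. All day-21 mice lay well above day 0, at a log2 fold change of 3.19 (SE 0.20, adjusted p 2.1e-06 by edgeR) and a fold of 9.11. Col14a1 (ENSMUSG00000022371.16, chromosome 15), its close relative on the surface of the same fibrils, stood at 43.0, 35.9 and 52.0 CPM on day 0 and 66.2, 41.0 and 59.3 CPM on day 21. These groups overlapped, with a log2 fold change of 0.35 (SE 0.19, interval -0.07 to 0.77, adjusted p 0.161 by edgeR). Col14a1 was the higher of the pair on day 0, at 6.23 CPM per kilobase against 0.820, and on day 21 they were at 7.91 and 7.43. Per kilobase of the longest transcript the day-21 order was reversed, at 8.6 for Col14a1 and 9.83 for Col12a1.

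Col16a1 was called higher (log2 fold change 1.81), and Col20a1, at 0.577 to 1.67 CPM, was not (0.43). Col19a1 counts were 0, 19 and 18 on day 0 and 0 in every day-21 mouse. Against the floor of 3 counts per library its mean was at least 5.95-fold lower on day 21, although one day-0 mouse was also at 0. Col22a1 had no counts on day 0 and 2, 4 and 4 on day 21. Col9a1 and Col9a2 had no counts in any mouse, a limit of 0.179 to 0.309 CPM per library for 3 counts, and Col9a3 had 0 to 8 counts.

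The type VI chains form a heterotrimer that assembles into beaded filaments around cells and basement membranes. Its core chains rose together. Col6a1 (ENSMUSG00000001119.7, chromosome 10, 76708792 to 76726168) went from 15.1, 15.0 and 20.4 CPM to 80.9, 40.9 and 72.7 CPM, a log2 fold change of 1.95 (SE 0.24, adjusted p 0.00012 by edgeR) and a fold of 3.85. Col6a2 (ENSMUSG00000020241.13), its neighbour on the chromosome, went from 13.0, 12.0 and 14.4 CPM to 60.2, 29.6 and 56.3 CPM, a log2 fold change of 1.89 (SE 0.25, adjusted p 0.00016 by edgeR) and a fold of 3.70. Col6a3 rose by a log2 fold change of 1.93. Day-21 replicate 2 had the lowest day-21 value of each, still above every day-0 mouse. The ratios of Col6a2 and Col6a3 to Col6a1 overlapped between groups (0.414 and 0.393 for Col6a2, 0.361 and 0.362 for Col6a3, exact p 0.5 and 1.0).

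Col6a6 (ENSMUSG00000043719.14, chromosome 9, 105687809 to 105828160), an alternative to Col6a3 in the trimer, had the steepest fall of all chains tested. Its counts were 50, 58 and 74 on day 0 and 8, 9 and 8 on day 21, or 5.01, 4.78 and 7.63 CPM against 0.566, 0.537 and 0.490 CPM. The groups were far apart and the day-21 mice close together. The log2 fold change was -3.43 (SE 0.35, adjusted p 3.4e-05 by edgeR), a level 10.8-fold lower. The other alternative chains, encoded beside it on chromosome 9, were near the floor. Col6a5 had counts of 11, 6 and 5 in the day-0 mice and of 2, 22 and 22 in the day-21 mice (log2 fold change 0.44, interval -1.11 to 1.99), and Col6a4 had 4 to 13 counts and was not tested. The class median log2 fold change was 1.89.

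Of the transmembrane collagens, which span the cell membrane and carry their triple helix outside, Col17a1 was called higher, Col23a1 lower and Col13a1 neither, with a median of -0.32. Col17a1 (ENSMUSG00000025064.15, chromosome 19, 47646344 to 47692094) is the hemidesmosomal collagen that anchors epithelial cells to the basement membrane. Its counts were 2, 1 and 0 on day 0 and 50, 84 and 44 on day 21. Every day-0 mouse was under the floor of 3 counts per library, so the mean level of 3.75 CPM on day 21 was at least 13.1-fold higher (adjusted p 9.9e-05 by edgeR). The fitted log2 fold change of 5.18 (SE 0.63) was 6.08 without day-0 replicate 1 and is no bound.

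Genes that act with Col17a1 and urothelial markers were read as lists, and each count stands beside 19.6% of all genes called higher and 15.5% lower. Of 7 hemidesmosome and laminin genes reported, with sums of 719 to 1000 CPM on day 0 and 697 to 753 CPM on day 21, Itgb4 was called higher (log2 fold change 1.66), Dst, the plakin that binds keratins at hemidesmosomes, was called lower (-1.27) and 5 were not called. With so few genes, 1 of 7 in each direction is near those shares. The urothelial markers, which would show renal pelvis in the tissue, summed to 5.62 to 23.5 CPM on day 0 and 7.28 to 12.4 CPM on day 21. None of these 6 was called higher, and Upk1a was called lower.

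Col23a1 (ENSMUSG00000063564.13, chromosome 11, 51289920 to 51583918) stood at 5.01, 7.34 and 5.98 CPM on day 0 and 2.40, 2.15 and 3.06 CPM on day 21. The groups did not overlap, and the log2 fold change was -1.27 (SE 0.27, adjusted p 0.00354 by edgeR), a level 2.41-fold lower. Col13a1 (ENSMUSG00000058806.14, chromosome 10) was at 2.51, 1.48 and 1.24 CPM against 1.70, 0.716 and 1.78 CPM, with overlapping groups and a log2 fold change of -0.32 (SE 0.46, interval -1.34 to 0.70, adjusted p 0.601 by edgeR). Its direction turned to 0.06 with libraries scaled by size alone. Col25a1 had 1 to 3 counts in each mouse and was not tested.

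Both multiplexins rose. They are proteoglycan-like collagens at the outer face of basement membranes, and the end of the Col18a1 protein is released as endostatin. Col18a1 (ENSMUSG00000001435.15, chromosome 10, 77052178 to 77166548) was at 236, 206 and 229 CPM on day 0 and 657, 612 and 662 CPM on day 21, with little spread, for a log2 fold change of 1.53 (SE 0.11, adjusted p 4.3e-06 by edgeR) and a fold of 2.88. Col15a1 (ENSMUSG00000028339.17, chromosome 4, 47208161 to 47313167) was lower at 32.3, 21.3 and 28.8 CPM and rose further, to 191, 124 and 204 CPM, for a log2 fold change of 2.66 (SE 0.21, adjusted p 8.4e-06 by edgeR) and a fold of 6.31. The ratio of Col18a1 to Col15a1 fell from 6.62, 8.72 and 7.21 to 3.11, 4.48 and 2.94 with no overlap (exact p 0.1).

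The chains of type VIII collagen, made by endothelium and smooth muscle as short-chain hexagonal lattices, differed in level and in call. Col8a1 (ENSMUSG00000068196.5, chromosome 16) was at 32.5, 8.41 and 29.9 CPM on day 0 and 35.8, 23.7 and 30.6 CPM on day 21. The groups overlapped, with day-0 replicate 2 well below the rest, and the log2 fold change was 0.36 (SE 0.38, interval -0.49 to 1.21, adjusted p 0.478 by edgeR). Col8a2 (ENSMUSG00000056174.8, chromosome 4) had counts of 4, 1 and 1 on day 0 and 16, 33 and 54 on day 21, for a log2 fold change of 3.44 (SE 0.67, adjusted p 0.00211 by edgeR). Without day-0 replicate 1 that value was 4.40. Col8a2 stayed called without any one mouse, but it passed the filter only through its day-21 counts. Its day-0 counts lay under or near the floor of 3 counts per library, so the size of its rise is uncertain. It remained far below its partner, at a ratio to Col8a1 of 0.013 on day 0 and 0.115 on day 21 (exact p 0.1). The change of the log2 ratio was 3.14, and 2.72 with 0.5 counts added. Col10a1, the hexagonal collagen of hypertrophic cartilage, had no counts on day 0 and 14, 2 and 3 on day 21, at least 1.51-fold higher against the floor of 3 counts per library. That bound rests on day-21 replicate 1, as the other two day-21 mice were themselves at or under the floor.

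Col7a1 (ENSMUSG00000025650.13, chromosome 9, 108953586 to 108984875), the chain of the anchoring fibrils known from skin, was called higher from a low level. Its counts were 6, 5 and 7 on day 0 and 66, 87 and 124 on day 21, with a log2 fold change of 3.33 (SE 0.37, adjusted p 5.7e-05 by edgeR) and a fold of 10.1. Col26a1 (ENSMUSG00000004415.15, chromosome 5) was at 1.80, 1.73 and 2.99 CPM on day 0 and 3.39, 4.18 and 4.78 CPM on day 21. Its log2 fold change of 0.93 (SE 0.32, adjusted p 0.0357 by edgeR) was not called when day-0 replicate 1, day-0 replicate 2, day-21 replicate 2 or day-21 replicate 3 was left out, at 0.80, 0.78, 0.92 and 0.81. Col28a1 (ENSMUSG00000068794.7, chromosome 6) was too low to test, with counts of 4, 0 and 2 on day 0 and 12, 11 and 10 on day 21.

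These changes gave another make-up of the collagen mRNA. Summed over all 44 chains, the level was 210, 187 and 244 CPM per kilobase on day 0 and 633, 450 and 634 on day 21, 2.68-fold higher by the means. Basement membrane chains held 62.7%, 64.8% and 63.9% of that sum on day 0 and 39.3%, 41.2% and 37.0% on day 21. Fibrillar chains went from 8.47%, 8.74% and 10.5% to 31.4%, 26.4% and 33.5%. Neither share overlapped between the groups. The absolute level of the basement membrane class was nonetheless higher, at 136 ± 17.6 on day 0 and 223 ± 33.4 CPM per kilobase on day 21 (SD, n = 3), and that of the fibrillar class went from 20.0 ± 5.0 to 177 ± 50.7.

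The smaller classes shifted less. Multiplexins held 18.4%, 17.4% and 15.2% on day 0 and 19.5%, 23.7% and 19.9% on day 21, and beaded filaments 3.55% ± 0.132 and 4.49% ± 0.737 (SD, n = 3). FACIT chains held 4.12% ± 0.189 and 3.63% ± 0.136, a change that turned to a gain of 0.619 percentage points when counts were not divided by length. The transmembrane share went from 0.702% ± 0.161 to 0.247% ± 0.0502 and the hexagonal share from 1.39% ± 0.733 to 0.777% ± 0.0345. By level per kilobase the leading chains were Col4a1, Col18a1, Col4a2, Col4a3 and Col4a4 on day 0, and Col4a1, Col18a1, Col4a2, Col3a1 and Col1a1 on day 21. Col1a1 went from rank 14 to rank 5, Col3a1 from 11 to 4 and Col4a3 from 4 to 10. These ranks depend on the length used: per kilobase of the longest transcript the leading chains on day 21 were Col4a1 (131), Col3a1 (119), Col18a1 (115), Col1a2 (86.6) and Col4a2 (74.4), with Col1a1 next (58.3).

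**Figure D4:**
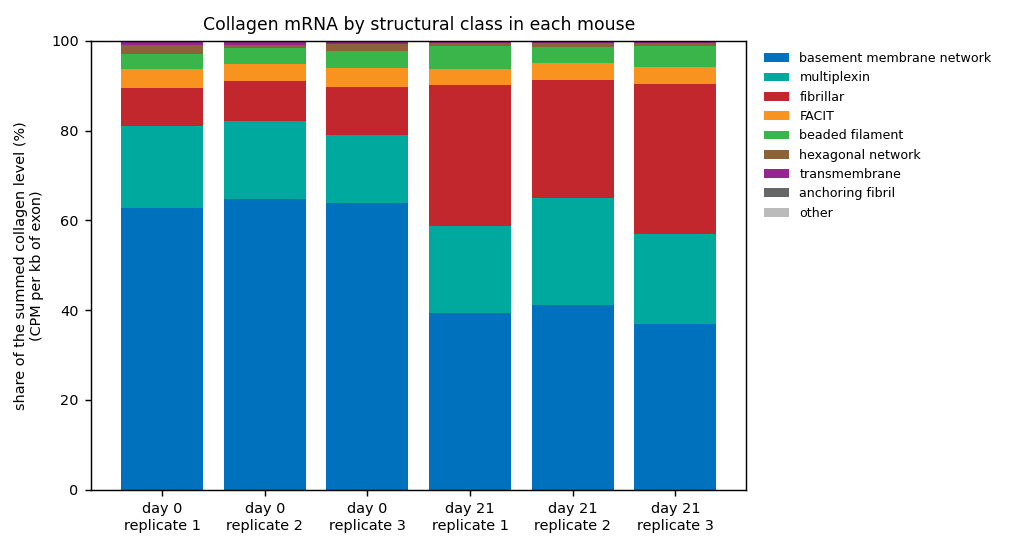
Share of the summed collagen level (CPM per kilobase of exon, %) held by each structural class in each of the 6 mice. The basement membrane share lies at 62.7% to 64.8% on day 0 and at 37.0% to 41.2% on day 21, and the fibrillar share at 8.47% to 10.5% and 26.4% to 33.5%.

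**Figure D5:**
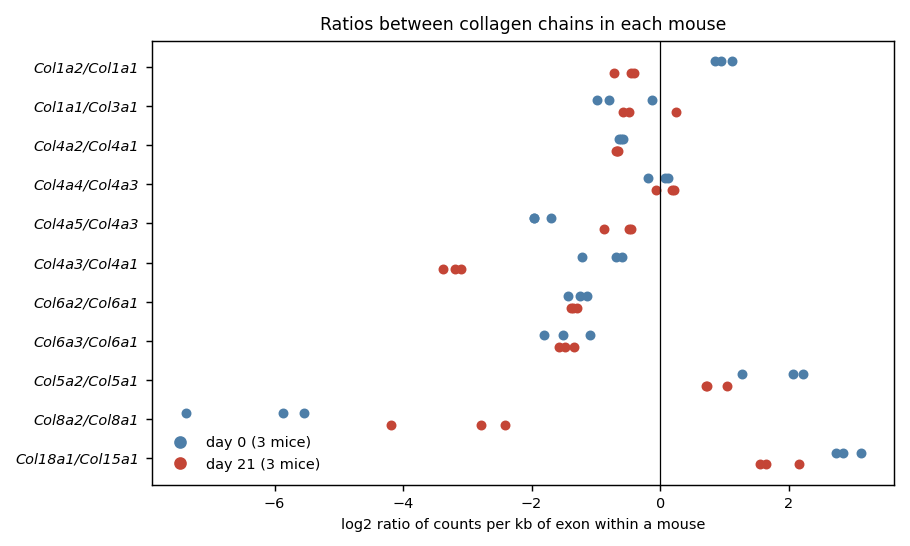
Log2 ratio of 11 pairs of chains within each mouse (x axis, counts per kilobase of exon), blue for day 0 and red for day 21. The groups part for 7 pairs, by -2.39 for Col4a3 to Col4a1 and by only -0.06 for Col4a2 to Col4a1, and overlap for the other 4. By level, the groups did not overlap in 57.1% of all genes tested, and no such share was computed for ratios of other genes.

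The mice of a group kept a common order across chains. Day-0 replicate 2 was the lowest day-0 mouse in 21 of the 32 tested chains (65.6%, beside 33.1% of all genes tested) and day-0 replicate 3 the highest in 20 (62.5%, beside 35.1%). Day-21 replicate 2 was the lowest day-21 mouse in 22 (68.8%, beside 37.6%) and day-21 replicate 3 the highest in 18 (56.2%, beside 29.0%). The summed level of 9 fibroblast and myofibroblast markers followed the same order, at 356, 326 and 385 CPM on day 0 and 1040, 789 and 1110 CPM on day 21. All 9 were called higher, beside 19.6% of all genes, with a median log2 fold change of 1.24 and none at 0. The order was shared in part by other lists. Endothelial, urothelial and adipocyte sums were also highest in day-0 replicate 3 and lowest in day-21 replicate 2, but were lowest in day-0 replicate 1. Macrophage sums were highest in replicate 2 of both groups. The part of fibroblast number in the rise of the chains was not tested. Without day-21 replicate 2, 18 chains were called higher and 6 lower, out of 33 tested. Col26a1 lost its call, the 5 chains called lower kept theirs, and the added one had not been tested with all mice. Chains called lower also numbered 6 without day-0 replicate 1, day-21 replicate 1 or day-21 replicate 3.

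Other cell types were read from marker lists, and each count stands beside 19.6% of all genes called higher and 15.5% lower. All 5 macrophage markers were called higher, their sum going from 96.7 to 113 CPM on day 0 to 372 to 426 CPM on day 21. Of 6 tubule markers, present at high levels as kidney tissue should show, 5 were called lower (13500 to 15300 CPM on day 0, 5400 to 5740 CPM on day 21). Of 6 endothelial markers, 2 were called lower and none higher, with sums of 400 to 450 CPM and 206 to 334 CPM. Adipocyte markers reached 8.86 CPM in day-0 replicate 3 and at most 1.57 CPM elsewhere. Adrenal markers stayed at 2.12 to 4.31 CPM with Cyp11b2 at 0, and skeletal muscle markers at up to 2.57 CPM with Myh4 at 0, of which Acta1 was called higher (log2 fold change 4.77). The part of these cells in the changes of the chains was not tested.

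Genes that make, trim, link or bind collagen were read by step, and each count stands beside 19.6% of all genes called higher and 15.5% lower. Of 17 tested genes for folding and modification in the endoplasmic reticulum, 6 were called higher, 3 lower and 8 not called, with a median log2 fold change of 0.23 beside 0.03 for all genes. Those higher were the chaperones Fkbp10 (2.50) and Serpinh1 (0.98), the prolyl 3-hydroxylases P3h1 (1.02) and P3h3 (1.30), their relative P3h4 (0.83), and Colgalt1 (1.02), which adds galactose to hydroxylysine. Those lower were Colgalt2 (-1.22), the prolyl 3-hydroxylase P3h2 (-0.94) and P4hb (-0.63), which also serves general protein folding. With libraries scaled by size alone only 1 was lower.

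Of the 9 tested genes for propeptide removal, the procollagen proteases Bmp1 and Adamts2 were called higher (2.67 and 3.17) and the brush border meprins Mep1a and Mep1b lower (-1.82 and -3.64), with 5 not called and a median of 0.54. With so few genes, 2 of 9 in each direction is near the shares over all genes. The meprins are abundant products of the proximal tubule. Of the 6 crosslinking enzymes, 5 were called higher and none lower, with a median of 1.57. Lox, the lysyl oxidase of fibrils, went from 24, 36 and 109 counts on day 0 to 650, 458 and 845 on day 21 (log2 fold change 2.94, SE 0.47). Loxl2 had a log2 fold change of 2.14, and Pxdn, the peroxidase that crosslinks type IV collagen, of 1.61. Loxl4 was not called (0.72).

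Of 9 tested collagen receptors, 5 were called higher and none lower, with a median of 0.81. They were Lair1 (2.97), an inhibitory receptor of leukocytes, Mrc2 (2.27), which takes up collagen for degradation, Adgrg1 (0.94), Ddr1 (0.81) and the integrin chain Itgb1 (0.65). Its partners Itga1 (0.55), Itga2 (0.07) and Itga10 (0.44) and the fibrillar collagen receptor Ddr2 (0.93) were not called. Without day-0 replicate 3, 8 receptors were called higher. Itga11, the fibroblast integrin for fibrillar collagen, was too low on day 0 to be tested, with counts of 0, 2 and 0 there and 22, 10 and 11 on day 21.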

How the data were processed

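The authors deposited raw read counts per gene for each mouse, not normalized. The labels name TopHat and mm10, and the counting program and its strand setting are not given in the sources used here. Every identifier matched GENCODE mouse release 21 on GRCm38. The members and lists were chosen with earlier results of these data known. Counts were filtered with filterByExpr (minimum count 10, minimum total 15), scaled by TMM and compared between groups with edgeR 4.0.16 (R 4.3.3) over 16592 genes. DESeq2 1.42.0 and limma 3.58.1 served as alternatives, and all 3 were tested on simulated data. Ratios of chains were compared by two-sided exact permutation tests. Counts of 3 or fewer were taken as the floor, for counting error only. No libraries were duplicates, since chi-square per gene ran from 6.78 to 23.6. Per-mouse values are given for the 2 chains of each class with the highest level per kilobase, every chain called lower and the 2 largest rises, and others were added after their values were seen. The calls follow the thresholds of the study's methods. Alternatives were other scalings, filters, tools and thresholds, other lengths, a replicate block and each mouse left out. A few genes of the marker lists are not reported here and stay out of the lists' counts and sums.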

Additional observations from a re-analysis of the deposited data

How the results depend on the processing

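Of the 19 chains called higher, 18 kept their call in every alternative in which they were tested, as did 4 of the 5 called lower and 6 of the 8 not called; the exceptions were Col26a1 and Col4a4, given above, Col11a1, called with upper quartile scaling (1.90), library size alone (2.20), no filter (1.82) and limma-voom (2.44) and without day-0 replicate 3, and Col14a1, called with library size alone (0.73). Among chains not called, Col13a1, Col20a1 and Col8a1 changed sign in some alternatives. The replicate numbers did not pair the mice (correlations of deviations -0.03, 0.177 and 0.106, and not every mouse correlated best with its own number), and with the replicate block 19 chains were called higher and 5 lower. Chains called numbered 19 with a mean of at least 50 counts and 27 with no filter. With library size alone the class medians of the log2 fold change were 2.47 (fibrillar), 0.61 (basement membrane), 1.5 (FACIT), 2.48 (multiplexin) and 0.06 (transmembrane, reversed in sign), with 1 folding gene lower and 4 propeptide genes higher. With no filter, which tests more chains, they were 1.47 (fibrillar), 0.62 (FACIT), 1.17 (beaded) and 3.44 (hexagonal), and with a mean of at least 50 counts, which tests fewer, 1.83 (FACIT), -1.24 (transmembrane) and 0.38 (hexagonal). Leaving out each mouse filtered the counts anew, so 32 to 35 chains were tested and a class could gain chains of few counts. The medians then ran from 1.93 to 2.86 (fibrillar), 0.10 to 0.46 (basement membrane), 0.53 to 1.2 (FACIT), 1.37 to 2.15 (beaded), -0.54 to 0.00 (transmembrane) and 1.49 to 2.53 (hexagonal), and receptors called higher from 4 to 8. Where the beaded median was 1.37, without day-0 replicate 1, Col6a1, Col6a2 and Col6a3 stood at 1.86, 1.86 and 2.02. The change in share was 24.0 points (fibrillar), -28.2 (basement membrane), 0.619 (FACIT, reversed) and -0.298 (transmembrane) with counts not divided by length, and 25.0 (fibrillar) per kilobase of the longest transcript. Where no construction is named, the cause was not tested. At 0.179 to 0.309 CPM for 3 counts, depth limits the 12 chains not tested.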
